A study of Anas platyrhynchos with 18 samples.

Results

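The net change of skin miRNAs between 1 day (1DB) and 10 weeks of age (10WK) was measured by small RNA sequencing of skin from white Pekin ducks. The members were all miRNAs that reached 1 CPM (counts scaled to a library total of 1000000) in 2 or more of the 6 libraries compared, 3 at 1DB and 3 at 10WK, which were 231 of the 353 miRNAs with a count in the series. The other 122 did not reach that level and were not tested. The series holds 17 libraries used here, from 11, 15 and 20 days of embryonic development (11EM, 15EM and 20EM) and from 1DB, 4 weeks (4WK) and 10WK, with 3 libraries a stage except 20EM, where 2 were analysed. The birds received no treatment apart from their age, were fed commercial diets, and gave skin from above the thoracic vertebrae, so that each library mixes epidermis, feather follicles, dermis, vessels, blood and any underlying muscle. How the skin samples of a stage were combined into its 3 libraries is not given in the sources used here, so p-values measure the spread between libraries, which may be partly technical. By the read statistics of the study, the 6 libraries were of one run type.

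A miRNA is a short RNA that guides a silencing complex to messenger RNAs, mainly through its seed, bases 2 to 8 from the 5′ end. miRNAs with the same seed are grouped as a family, and the 5p and 3p strands of one hairpin precursor are called its arms. In mammalian skin, miR-203 favours the differentiation of keratinocytes, miR-31 is induced in growing hair follicles and in wounds, and miR-29 represses transcripts of collagens and other matrix proteins.

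The sequences that carry the main changes are shown first, since several of them share a seed. They are the chicken sequences to which the reads of the duck were matched, written from the 5′ end with the seed in capitals. The epidermal miRNAs that rose are followed by the miR-29 family, in which all 3 members rose.
miR-31-5p: aGGCAAGAuguuggcauagcug
miR-203a: gUGAAAUGuuuaggaccacuug
miR-29a-3p: uAGCACCAuuugaaaucgguu
miR-29b-3p: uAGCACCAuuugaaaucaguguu
miR-29c-3p: uAGCACCAuuugaaaucggu

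miR-449a and miR-449c-5p, which rose, carry the seed of miR-34a-5p, which did not pass the test. miR-30e-5p, which rose, carries the seed of miR-30a-5p, which did not pass it either.
miR-449a: uGGCAGUGuauguuagcuggu
miR-449c-5p: uGGCAGUGcguguuagcuggcugu
miR-34a-5p: uGGCAGUGucuuagcugguuguu
miR-30e-5p: uGUAAACAuccuugacugg
miR-30a-5p: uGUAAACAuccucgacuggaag

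Among those that fell, the miR-130 and miR-454 sequences share a seed, as do both miR-181 sequences.
miR-130a-3p: cAGUGCAAuauuaaaagggcau
miR-130b-3p: cAGUGCAAuaaugaaagggcgu
miR-454-3p: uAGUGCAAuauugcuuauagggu
miR-181a-5p: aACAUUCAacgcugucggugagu
miR-181b-5p: aACAUUCAuugcugucgguggg

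The steepest falls among DE miRNAs whose mean reached 10 CPM at either stage came from miRNAs whose seeds no other tested miRNA carried, and miR-2954, next in order, separated the libraries of the whole series.
miR-490-3p: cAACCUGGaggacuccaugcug
miR-489-3p: aGUGACAUcauauguacggcugc
miR-383-5p: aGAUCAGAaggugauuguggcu
miR-375: uUUGUUCGuucggcucgcguua
miR-9-3p: uAAAGCUAgagaaccgaaugu
miR-2954: cAUCCCCAuuccacuccuagca

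The libraries held between 6191433 and 8568906 counts on miRNAs at 1DB and between 3072942 and 5668932 at 10WK, so depth did not overlap between the stages. Over the 6 libraries, 3 counts corresponded to between 0.350 and 0.976 CPM, and limits from counts cover counting error only. The median absolute log2 difference was taken over the 173 miRNAs whose mean reached 10 CPM at 1DB or 10WK. It was 0.19 between libraries of the same stage (0.15 to 0.27, 6 pairs) and 0.59 between libraries of different stages (0.52 to 0.64, 9 pairs). The defining miRNAs of epidermis stood among the most abundant, with miR-205a between 26421 and 45927 CPM and miR-203a between 7617 and 33416 CPM over the 6 libraries. Erythroid miR-451 was also high, between 9047 and 20847 CPM. The defining miRNA of muscle, miR-1a-3p, lay between 56.4 and 99.2 CPM, but miR-133a-3p of the same list lay between 8454 and 14165 CPM. The liver miRNA miR-122-5p was at 19.6 CPM in 1DB replicate 2 and at or below 3.14 CPM in the other libraries.

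Between 1DB and 10WK, 53 of the 231 miRNAs (22.9%) were DE miRNAs, with an adjusted p under 0.05 in edgeR's quasi-likelihood test and a change of 2-fold or more. Of these, 20 were up-regulated (8.66%) and 33 down-regulated (14.3%). Among DE miRNAs whose mean reached 10 CPM at 1DB or 10WK, the largest rises were in miR-31, miR-449a and miR-29, and the largest falls in miR-490-3p, miR-489-3p, miR-383-5p, miR-375 and miR-9-3p. A further 38 passed the adjusted p with a change under 2-fold, 17 higher and 21 lower at 10WK, and 140 had an adjusted p of 0.05 or more. The median log2 fold change over all 231 miRNAs was -0.07, and without the TMM factors, which correct for the composition of a library, it was 0.07. With that scaling by library totals alone, 25 were up-regulated and 26 down-regulated, a share of 49.0% up in place of 37.7%. The share was 46.9% with median-of-ratios size factors (23 up, 26 down), 47.2% with DESeq2 (25 up, 28 down), 49.1% with limma (26 up, 27 down) and 53.2% in a fit of the 9 libraries after hatch (25 up, 22 down).

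The values of the libraries at 1DB and 10WK did not overlap for 137 of the 231 miRNAs (59.3%), 72 of them higher at 10WK (31.2%) and 65 lower (28.1%). Among the DE miRNAs this held for 52 of 53, and the exception was miR-1467-5p. DE miRNAs made up 14.3% of the 56 miRNAs with a mean of at least 1000 CPM, 25.9% of the 54 between 100 and 1000 CPM, 33.3% of the 57 between 10 and 100 CPM and 18.8% of the 64 under 10 CPM. Together the 20 up-regulated miRNAs took 0.961% ± 0.0413 (SD, n = 3) of the counts at 1DB and 3.36% ± 0.649 at 10WK. The 33 down-regulated miRNAs took 11.3% ± 0.835 at 1DB and 5.56% ± 0.344 at 10WK. These sums restate the choice of the miRNAs and were not tested.

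**Figure D1:**
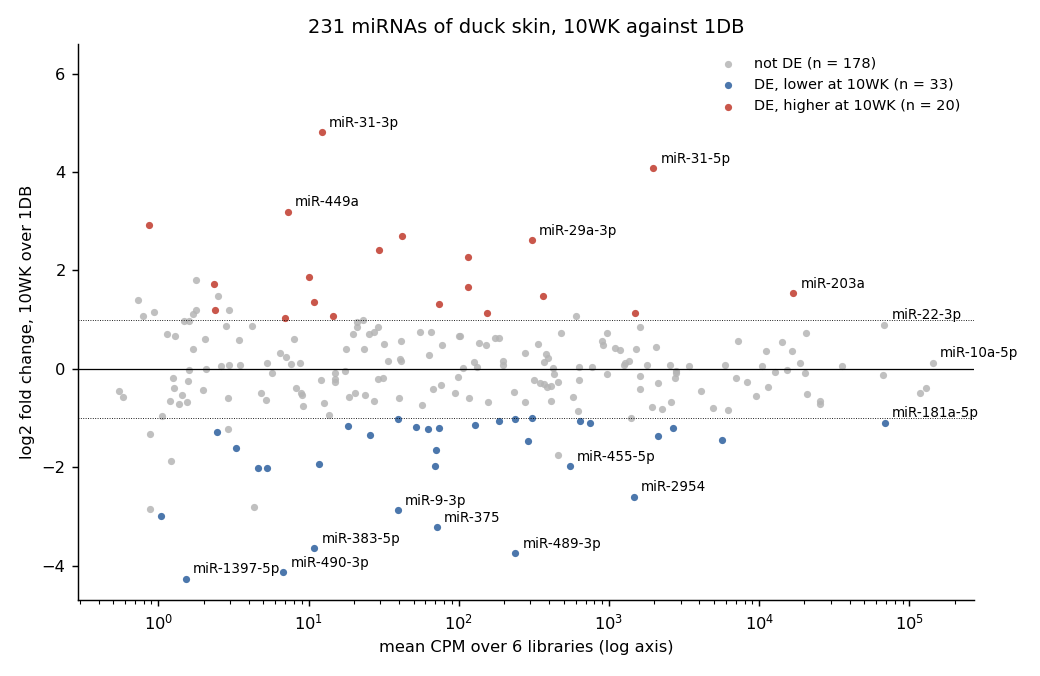
Log2 fold change from 1DB to 10WK (vertical axis) against the mean CPM over the 6 libraries (log axis) for the 231 miRNAs, with dotted lines at a 2-fold change. Red points are the 20 up-regulated and blue points the 33 down-regulated DE miRNAs, and the most abundant miRNA, miR-10a-5p, lies near 0.

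The epidermal miRNAs that passed the test rose, with miR-31 far ahead of the others. Of 12 tested members of the epidermis and keratinocyte list, 4 were up-regulated, both arms of miR-31, miR-203a and miR-429-5p, and 0 down-regulated. The median log2 fold change of the list was 0.84 beside -0.07 over all miRNAs, and 11 of 12 estimates were positive. Over all 231 miRNAs, 8.66% were up-regulated and 14.3% down-regulated, the shares beside which the counts of each list stand. In bulk skin, fewer cells of a type and less RNA per cell cannot be told apart, here and for every list below.

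miR-31-5p had 187, 237 and 179.7 CPM in the 3 libraries of 1DB and 3585, 4121 and 3510.0 CPM in those of 10WK. Every library of 10WK was far above every library of 1DB, and the difference was 16.9-fold (log2 fold change 4.08, SE 0.29, adjusted p = 1.9e-07). The other arm, miR-31-3p, had 0.646, 0.657 and 0.934 CPM at 1DB and 27.2, 27.4 and 16.9 CPM at 10WK, a 28.1-fold rise (log2 fold change 4.81, SE 0.44, adjusted p = 3.0e-06). Both arms of the hairpin thus stood at the top of the rises, the minor arm from a level close to that of 3 counts.

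miR-203a, which restrains the stem cell factor p63 in mouse epidermis, had 7617, 7848 and 8558 CPM at 1DB and 22482, 33416 and 21334 CPM at 10WK. The stages were far apart, with replicate 2 of 10WK the highest, and the rise was 2.90-fold (log2 fold change 1.54, SE 0.37, adjusted p = 0.00434). It carried the largest gain in counts among the up-regulated miRNAs, and it was the most abundant of them. miR-429-5p, the minor arm of a miR-200 family hairpin, had 0.646, 1.18 and 1.17 CPM at 1DB and 4.06, 4.70 and 2.28 CPM at 10WK (log2 fold change 1.72, SE 0.53, adjusted p = 0.0199). Its call was lost without 1DB replicate 1 (adjusted p = 0.0713), 10WK replicate 1 (0.0595) or 10WK replicate 2 (0.0617). The arm that carries the miR-200 function, miR-429-3p, was higher at 10WK in all libraries without passing the test (log2 fold change 0.57, SE 0.30, adjusted p = 0.149).

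The rest of the miR-200 family, which keeps epithelial cells from losing their contacts by repressing the factors ZEB1 and ZEB2 in mammals, gave similar estimates. miR-200a-3p had 674, 688 and 714 CPM at 1DB and 1201, 1341 and 1236 CPM at 10WK and passed the adjusted p under 2-fold (log2 fold change 0.72, SE 0.25, adjusted p = 0.0328). miR-200b-3p had a log2 fold change of 0.73 (SE 0.33, adjusted p = 0.099). miR-205a, a marker of basal keratinocytes, had 26421, 35725 and 36746 CPM at 1DB and 35416, 31928 and 45927 CPM at 10WK. Its stages overlapped (log2 fold change 0.06, SE 0.29, adjusted p = 0.894), so that miR-203a and miR-205a, close together in rank, moved by unlike amounts. The paralogue miR-205b was the single negative estimate of the list, with 648, 734 and 685 CPM at 1DB and 218, 187 and 272 CPM at 10WK. Its stages did not overlap, and it was 3.35-fold lower without passing the test (log2 fold change -1.74, SE 0.72, adjusted p = 0.0666). The fit takes the spread of a miRNA from all stages, and 4WK replicate 1 had 8.08 CPM of miR-205b beside 323 and 248 CPM. The effect of that library on the call was not tested.

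**Figure D2:**
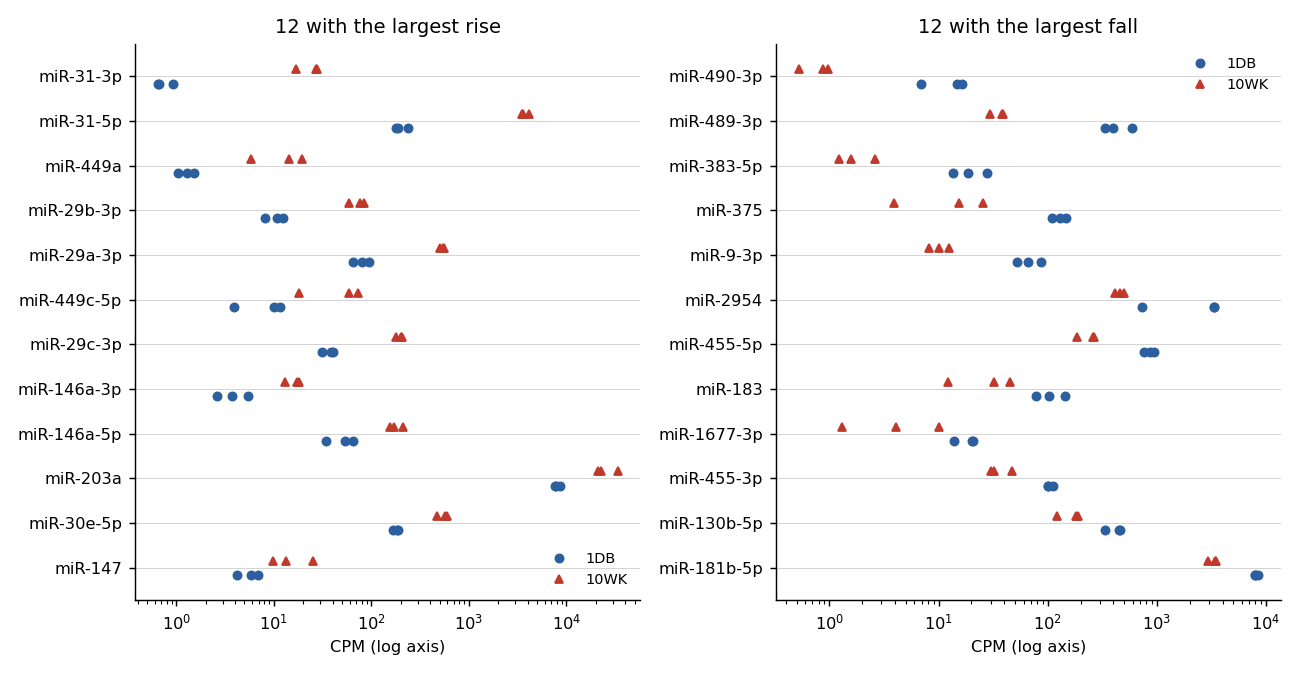
CPM (log axis) of the 12 DE miRNAs with the largest rise (left) and the 12 with the largest fall (right), taken from DE miRNAs whose mean reached 10 CPM at 1DB or 10WK and whose stages did not overlap. Each circle is a library of 1DB and each triangle a library of 10WK, and for miR-2954 a single circle, at 737 CPM, lies near the triangles.

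The miR-29 family rose together. Of 6 tested members of the list, the 3 sequences of the mature 3p arm were up-regulated, and the 3 minor 5p arms had positive estimates that did not pass the test. The median of the list was 1.88. miR-29a-3p had 94.5, 80.7 and 64.3 CPM at 1DB and 545, 554 and 501 CPM at 10WK, a 6.11-fold rise (log2 fold change 2.61, SE 0.33, adjusted p = 3.8e-05). miR-29b-3p had 10.8, 12.4 and 8.05 CPM at 1DB and 59.1, 76.6 and 84.9 CPM at 10WK (log2 fold change 2.69, SE 0.40, adjusted p = 1.2e-04).

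For miR-29c-3p the values were 38.8, 40.0 and 31.2 CPM at 1DB and 201, 206 and 178 CPM at 10WK (log2 fold change 2.28, SE 0.32, adjusted p = 8.6e-05). The groups were wide apart for all 3 sequences. Over their shared 20 bases miR-29a-3p and miR-29c-3p have 0 mismatches, so that reads of one can be counted on the other, and they are not independent. miR-29b-3p has 2 mismatches to miR-29a-3p over 21 bases and 1 to miR-29c-3p over 20 bases, so its counts can share reads with theirs too. The minor arm miR-29a-5p was at 0.969, 2.37 and 0.350 CPM at 1DB and 2.65, 6.01 and 2.60 CPM at 10WK (log2 fold change 1.48, SE 0.60, adjusted p = 0.0673), and without 1DB replicate 2 it passed the test (log2 fold change 2.43, adjusted p = 0.0152). The other minor arms were miR-29b-1-5p (log2 fold change 0.96, SE 0.50, adjusted p = 0.145) and miR-29b-2-5p (1.07, SE 1.00, adjusted p = 0.455).

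Members of the mesenchyme list and of the cartilage list had lower estimates at 10WK. In the list of mesenchyme and fibroblasts, 0 of 4 tested members were DE miRNAs, and all 4 estimates were negative with a median of -0.79. miR-214 and miR-199 are made from one transcript in mesenchyme of the mouse. miR-214 had 1772, 1885 and 1794 CPM at 1DB and 908, 1134 and 962 CPM at 10WK, with no overlap and a change just short of 2-fold (log2 fold change -0.999, SE 0.16, adjusted p = 1.9e-04). miR-199-5p had 8872, 7559 and 6639 CPM at 1DB and 4834, 4286 and 5069 CPM at 10WK (log2 fold change -0.83, SE 0.16, adjusted p = 0.00109).

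Of the 4 miRNAs of the cartilage list, both arms of miR-455 were down-regulated and both arms of miR-140 were not DE miRNAs. The study ties miR-140 to the development of skin and hair follicles in mammals, so the name of the list does not mean that the samples held cartilage. miR-455-5p had 949, 766 and 860.1 CPM at 1DB and 268, 186 and 261 CPM at 10WK, a fall by 1.98 on the log2 scale (SE 0.26, adjusted p = 4.4e-05). miR-455-3p had 112, 101 and 100.2 CPM at 1DB and 30.5, 31.9 and 46.9 CPM at 10WK (log2 fold change -1.66, SE 0.30, adjusted p = 5.7e-04). The defining miRNA of the list, miR-140-3p, was abundant in both stages, with 11999.5, 12748 and 12669 CPM at 1DB and 9189, 11339 and 11224 CPM at 10WK (log2 fold change -0.38, SE 0.37, adjusted p = 0.476). The muscle list (10 tested) and the erythroid list (5 tested) held 0 DE miRNAs, with medians of 0.19 and -0.29. Their summed levels did not overlap between the stages, at 9136 to 10530 CPM against 12228 to 15105 CPM for muscle and 11625 to 15502 CPM against 17270 to 25586 CPM for erythroid cells. Most of these sums came from miR-133a-3p (means of 9208 and 13071 CPM) and miR-451 (11024 and 17483 CPM), neither a DE miRNA. The sums thus follow these miRNAs rather than the lists, and 59.3% of all miRNAs did not overlap between the stages. The log2 fold change was -0.33 for miR-1a-3p (SE 0.96, adjusted p = 0.819) and 0.54 for miR-451 (SE 0.35, adjusted p = 0.247). The part of tissue composition in the other results was not tested.

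The miRNAs of the leukocyte list had higher estimates at 10WK. Of 11 tested members, 5 were up-regulated and 0 down-regulated, beside 8.66% up-regulated over all miRNAs. The 5 were both arms of miR-142, both arms of miR-146a and miR-21-3p, and arms of one hairpin are not independent. miR-21 is not particular to leukocytes, since the study cites its presence in mouse epidermis and in the epithelium of hair follicles. The median was 0.73, and 11 of 11 estimates were positive. The summed level of the list was between 29138 and 32894 CPM at 1DB and between 50158 and 51695 CPM at 10WK. Most of it came from miR-21-5p (means of 14556 and 26470 CPM) and miR-146c-5p (13738 and 19449 CPM). Neither was a DE miRNA, though miR-21-5p passed the adjusted p under 2-fold. The sum thus follows these miRNAs more than the 5 that were up-regulated, and it is not taken as a measure of leukocytes. miR-142, made in blood cells, had 41.7, 36.3 and 40.0 CPM of the 3p arm at 1DB and 106, 109 and 107 CPM at 10WK (log2 fold change 1.31, SE 0.31, adjusted p = 0.00457). Its 5p arm had 895, 905 and 846 CPM at 1DB and 2053, 1565 and 2711 CPM at 10WK (log2 fold change 1.13, SE 0.33, adjusted p = 0.0139). Leaving out 10WK replicate 3, the highest of the 3, ended the call of the 5p arm (log2 fold change 0.80, adjusted p = 0.0624).

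miR-146a, which damps NF-kB signalling through IRAK1 and TRAF6 in mammals, had 34.1, 65.2 and 53.9 CPM of the 5p arm at 1DB and 153, 172 and 209.6 CPM at 10WK. The rise was 3.18-fold (log2 fold change 1.67, SE 0.55, adjusted p = 0.0259). Its call was lost without 1DB replicate 1 (adjusted p = 0.0947), without 1DB replicate 3 (0.0563) and without 10WK replicate 3 (0.0891). The 3p arm had 2.58, 3.68 and 5.48 CPM at 1DB and 12.9, 17.2 and 18.2 CPM at 10WK (log2 fold change 1.87, SE 0.50, adjusted p = 0.00943). The paralogues with the same seed were not DE miRNAs, with log2 fold changes of 0.39 for miR-146b-5p (SE 0.23, adjusted p = 0.208) and 0.36 for the much more abundant miR-146c-5p (SE 0.25, adjusted p = 0.28).

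miR-21 is induced by growth signals and inflammation. Its minor arm miR-21-3p had 100.3, 103 and 72.8 CPM at 1DB and 221, 204 and 231 CPM at 10WK (log2 fold change 1.13, SE 0.22, adjusted p = 0.00106), and without 10WK replicate 3 the change was just under 2-fold (log2 fold change 0.96, adjusted p = 0.00661). Its major arm miR-21-5p had 16872, 14125 and 12672 CPM at 1DB and 25816, 27518 and 26075 CPM at 10WK, and it passed the adjusted p under 2-fold (log2 fold change 0.73, SE 0.17, adjusted p = 0.00434). Outside the list, miR-147, which is induced in activated macrophages of the mouse, had 6.95, 4.21 and 5.84 CPM at 1DB and 9.70, 13.3 and 25.4 CPM at 10WK. Its rise (log2 fold change 1.36, SE 0.42, adjusted p = 0.0199) was lost without 10WK replicate 3 (log2 fold change 0.76, adjusted p = 0.17) and without 1DB replicate 2 (adjusted p = 0.0723). miR-223, a granulocyte miRNA, was higher at 10WK in all libraries without passing the test (log2 fold change 0.63, SE 0.27, adjusted p = 0.0756).

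The tested members of the neural list, of the pancreas and liver list and of the miR-183 list had lower estimates at 10WK. In the neural list, 5 of 7 tested members were down-regulated, beside 14.3% over all miRNAs. The 5 were both arms of miR-9, miR-383-5p, miR-218-5p and miR-137-3p, and the arms of miR-9 are not independent. The median was -1.21, and 7 of 7 estimates were negative. The list is a choice of miRNAs by role, made with earlier results of these data known. miR-153-3p, placed in no list here, was up-regulated (log2 fold change 1.07, SE 0.38, adjusted p = 0.0349). miR-9 acts in neural progenitors. miR-9-3p had 86.2, 52.6 and 66.2 CPM at 1DB and 12.3, 10.2 and 8.14 CPM at 10WK, 7.31-fold lower (log2 fold change -2.87, SE 0.33, adjusted p = 1.8e-05). miR-9-5p had 104, 90.8 and 105 CPM at 1DB and 43.4, 63.0 and 36.8 CPM at 10WK (log2 fold change -1.21, SE 0.23, adjusted p = 9.8e-04).

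For miR-383-5p the values were 13.6, 28.0 and 18.6 CPM at 1DB and 1.23, 1.57 and 2.60 CPM at 10WK, 12.5-fold lower (log2 fold change -3.65, SE 0.53, adjusted p = 1.1e-04). miR-218-5p, a miRNA of motor neurons, had 411, 356 and 417 CPM at 1DB and 243, 227 and 182 CPM at 10WK (log2 fold change -1.01, SE 0.18, adjusted p = 5.7e-04). It lay at the 2-fold limit, and without 1DB replicate 1 (-0.999), 1DB replicate 3 (-0.90) or 10WK replicate 3 (-0.996) its log2 fold change was short of it. miR-124a-3p, a miRNA of neurons, was among the 7 members of the neural list that were not tested for low counts.

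miR-375, an islet and neuroendocrine miRNA in mammals, had 109, 129 and 146 CPM at 1DB and 15.5, 3.92 and 25.7 CPM at 10WK. All libraries of 10WK were far below those of 1DB, 9.33-fold on average (log2 fold change -3.22, SE 0.56, adjusted p = 5.0e-04). miR-183, made in sensory hair cells and sensory neurons, had 145, 103 and 78.4 CPM at 1DB and 31.9, 12.3 and 45.2 CPM at 10WK (log2 fold change -1.98, SE 0.48, adjusted p = 0.00497). The liver miRNA miR-122-5p was high in 1DB replicate 2 alone, with 0.646, 19.6 and 2.22 CPM at 1DB and 0.353, 3.14 and 0 CPM at 10WK (log2 fold change -2.80, SE 1.25, adjusted p = 0.0932). It passed the test without 1DB replicate 1 (adjusted p = 0.0458) or without 10WK replicate 2 (0.0456).

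miR-489-3p, which keeps muscle stem cells quiescent in the mouse, had 331, 589 and 400.1 CPM at 1DB and 39.2, 29.5 and 38.4 CPM at 10WK. It was 13.5-fold lower (log2 fold change -3.75, SE 0.64, adjusted p = 4.3e-04), the steepest fall among miRNAs above 100 CPM. miR-490-3p had 16.5, 6.97 and 14.8 CPM at 1DB and 0.882, 0.523 and 0.976 CPM at 10WK (log2 fold change -4.13, SE 0.59, adjusted p = 1.0e-04). Its counts summed to 282 at 1DB and 10 at 10WK, a ratio of CPM of 15.8 (95% exact conditional interval 8.49 to 33.4, counting error only). The other arm, miR-490-5p, had 35 counts at 1DB and 3 at 10WK and did not pass the test (adjusted p = 0.0651). It passed without 1DB replicate 2 (adjusted p = 0.0467), with the 6 libraries alone (0.0431), with the replicate number as a block in those 6 (0.0413), with DESeq2 (0.0341) and with limma (0.00641). miR-1677-3p, named in birds, had 20.2, 20.5 and 13.8 CPM at 1DB and 4.06, 10.2 and 1.30 CPM at 10WK (log2 fold change -1.94, SE 0.44, adjusted p = 0.00324). Its other arm, miR-1677-5p, was not a DE miRNA (log2 fold change -1.32, SE 0.80, adjusted p = 0.22).

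**Figure D3:**
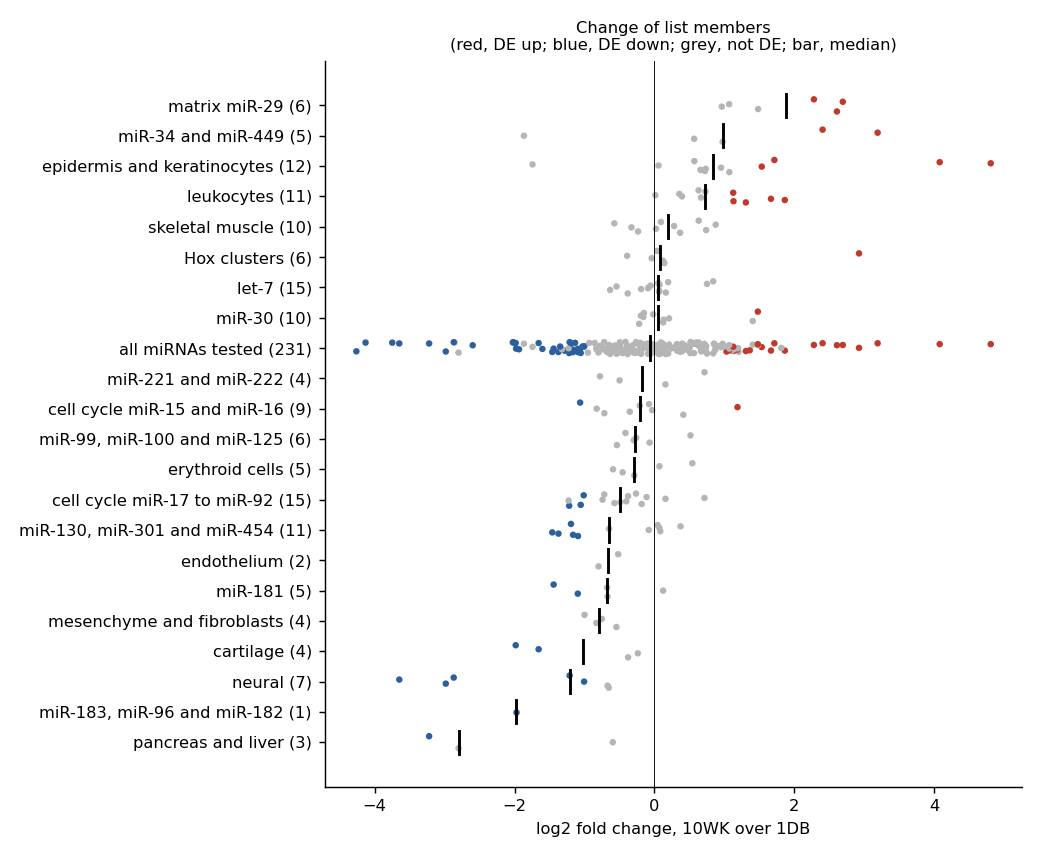
Log2 fold change from 1DB to 10WK of the tested members of each list, ordered by the median (bar), with the number tested in brackets and all 231 miRNAs as a row of their own. Red points are up-regulated, blue points down-regulated and grey points not DE; the miR-29, miR-449, epidermis and leukocyte lists hold red points without blue, and the neural, cartilage, miR-130 and miR-181 lists blue without red.

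In the lists tied to cell proliferation, DE miRNAs were about as frequent as over all miRNAs (22.9%). Of 15 tested miRNAs of the miR-17 to miR-92 clusters and their paralogues, which favour cell cycle progression, 3 were down-regulated, 0 up-regulated and 13 had negative estimates, with a median of -0.49. Beside 14.3% down-regulated over all miRNAs, this is not a result about the family, and with library totals alone 1 of the 15 was down-regulated. Those 3 were both arms of miR-106 and miR-20b-5p, which are paralogues outside the main cluster. miR-106-5p had 254, 248 and 224 CPM at 1DB and 113, 164 and 108 CPM at 10WK (log2 fold change -1.05, SE 0.18, adjusted p = 4.6e-04). miR-20b-5p had 321, 313 and 284 CPM at 1DB and 151, 194 and 156 CPM at 10WK (log2 fold change -1.01, SE 0.16, adjusted p = 1.9e-04). Both stood close to the 2-fold limit. Without 10WK replicate 1 their log2 fold changes were -0.98 and -0.94, and miR-20b-5p was also short of the limit without 1DB replicate 1 (-0.996) or 1DB replicate 2 (-0.96).

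Members of the main cluster moved less. miR-17-5p had 681, 682 and 623 CPM at 1DB and 458, 553 and 459 CPM at 10WK (log2 fold change -0.57, SE 0.13, adjusted p = 0.00345). miR-20a-5p, at 2 mismatches to miR-20b-5p, had a log2 fold change of -0.38 (SE 0.12, adjusted p = 0.0231). miR-92-3p, the most abundant of the list, had 30245, 31377 and 28993 CPM at 1DB and 19870.2, 22632 and 18181 CPM at 10WK (log2 fold change -0.72, SE 0.27, adjusted p = 0.0453). Beside 8.66% up-regulated and 14.3% down-regulated over all miRNAs, 1 of 9 in the miR-15 and miR-16 list was up-regulated and 1 down-regulated. The latter, miR-16c-5p, had 858, 855 and 808 CPM at 1DB and 410.1, 491 and 428 CPM at 10WK (log2 fold change -1.06, SE 0.14, adjusted p = 4.3e-05), while miR-16-5p overlapped between the stages (log2 fold change -0.08, SE 0.15, adjusted p = 0.732). The call of miR-16c-5p was lost with library totals alone, where its change was under 2-fold.

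In the list of miR-130, miR-301 and miR-454, 5 of 11 tested members were down-regulated, beside 14.3% over all miRNAs. None was up-regulated, and the median was -0.65. miR-130b-3p had 2913, 3059 and 2949 CPM at 1DB and 1258, 1451 and 1092 CPM at 10WK (log2 fold change -1.37, SE 0.16, adjusted p = 2.2e-05). miR-130b-5p, its other arm, had 455, 452 and 334 CPM at 1DB and 182, 191 and 121 CPM at 10WK (log2 fold change -1.46, SE 0.26, adjusted p = 5.1e-04). miR-454-3p had 3531, 3627 and 3685 CPM at 1DB and 1950.1, 1914 and 1373 CPM at 10WK (log2 fold change -1.19, SE 0.26, adjusted p = 0.00284). These stages were well apart in every case.

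miR-130a-3p had 976, 949 and 1031 CPM at 1DB and 462, 593 and 477 CPM at 10WK (log2 fold change -1.09, SE 0.17, adjusted p = 1.9e-04), and without 1DB replicate 3 it stood just short of the 2-fold limit (-0.998). Its minor arm miR-130a-5p, at 20.4, 30.5 and 22.6 CPM against 12.3, 17.5 and 6.18 CPM (log2 fold change -1.16, SE 0.39, adjusted p = 0.0273), lost the call without 1DB replicate 2 (adjusted p = 0.0999), 1DB replicate 3 (0.0576), 10WK replicate 1 (0.0682) or 10WK replicate 3 (0.0595). Other members with the same seed as miR-130a-3p behaved differently. miR-130c-3p, at 1 mismatch to miR-130a-3p, had 1159, 1202 and 1148 CPM at 1DB and 1329, 1312 and 1445 CPM at 10WK (log2 fold change 0.08, SE 0.14, adjusted p = 0.671). miR-301b-3p had a log2 fold change of 0.37 (SE 0.21, adjusted p = 0.194) and miR-301a-3p one of -0.65 (SE 0.20, adjusted p = 0.0187).

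Both miR-181 sequences, which act in lymphocyte development in the mouse, fell. miR-181a-5p, the fourth most abundant miRNA of the 6 libraries, had 83543, 88244 and 98421 CPM at 1DB and 49973, 45133 and 44509.5 CPM at 10WK. It was the most abundant DE miRNA, at 2.14-fold lower (log2 fold change -1.10, SE 0.13, adjusted p = 1.8e-05), and without 1DB replicate 3, its highest library, the log2 fold change was -0.96. miR-181b-5p had 7886, 7846 and 8495 CPM at 1DB and 3475, 3421 and 2956 CPM at 10WK (log2 fold change -1.44, SE 0.19, adjusted p = 5.6e-05). The minor arms were not DE miRNAs, with log2 fold changes between -0.68 and 0.12 in the list of 5.

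In the miR-34 and miR-449 list, 2 of 5 were up-regulated, miR-449a and miR-449c-5p, and the median was 0.98. The miR-34 and miR-449 families share a seed and act in multiciliated cells, and miR-34a is a target of p53 in mammals. miR-449a had 1.29, 1.05 and 1.52 CPM at 1DB and 14.5, 19.3 and 5.86 CPM at 10WK (log2 fold change 3.19, SE 0.83, adjusted p = 0.00777). miR-449c-5p had 3.88, 11.6 and 9.92 CPM at 1DB and 59.3, 73.4 and 17.9 CPM at 10WK (log2 fold change 2.41, SE 0.88, adjusted p = 0.043). Replicate 3 of 10WK was the lowest of its stage in both. The call of miR-449c-5p was lost without any of the other 5 libraries, with adjusted p between 0.0702 and 0.133. miR-34a-5p had 36.7, 35.2 and 23.1 CPM at 1DB and 50.3, 71.6 and 32.5 CPM at 10WK, with overlap (log2 fold change 0.57, SE 0.36, adjusted p = 0.244). The single negative estimate of the list was that of miR-34c-5p, which has the same seed. It had 2.91, 0.920 and 1.52 CPM at 1DB and 0, 0 and 1.95 CPM at 10WK (log2 fold change -1.87, SE 1.27, adjusted p = 0.274).

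miR-30e-5p was the single DE miRNA among 10 tested members of the miR-30 list, which had a median of 0.05. It had 189, 181 and 165 CPM at 1DB and 597, 474 and 566 CPM at 10WK (log2 fold change 1.48, SE 0.17, adjusted p = 1.8e-05). Its other arm, miR-30e-3p, overlapped between the stages at a higher level, with 1604, 1705 and 1572 CPM at 1DB and 1386, 1589.9 and 1846 CPM at 10WK (log2 fold change -0.15, SE 0.19, adjusted p = 0.589). The sequence of miR-30e-5p used for counting has 19 bases and 1 mismatch to miR-30a-5p over them, and miR-30a-5p was far more abundant, with 18652, 19647 and 13110.4 CPM at 1DB and 19618, 22241 and 19382 CPM at 10WK. How many reads of miR-30a-5p were counted on miR-30e-5p was not tested.

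The lists of let-7 (15 tested), of miR-221 and miR-222 (4), of miR-99, miR-100 and miR-125 (6) and of endothelium (2) held 0 DE miRNAs. Their medians were 0.06, -0.17, -0.28 and -0.66. In the list of Hox clusters 1 of 6 was up-regulated, in that of pancreas and liver 1 of 3 was down-regulated, and miR-183 was the single tested member of its cluster, with medians of 0.08, -2.80 and -1.98. let-7a-5p, which accumulates as cells differentiate in many animals, had 9323, 9860.3 and 9774 CPM at 1DB and 11366, 11296 and 10739 CPM at 10WK (log2 fold change 0.07, SE 0.15, adjusted p = 0.765). The defining miR-125b-5p had a log2 fold change of -0.26 (SE 0.14, adjusted p = 0.167) and miR-221-3p one of 0.16 (SE 0.20, adjusted p = 0.581). Endothelial miR-126-3p had 5872, 7613 and 4601 CPM at 1DB and 3720.1, 3838 and 3764 CPM at 10WK and passed the adjusted p under 2-fold (log2 fold change -0.80, SE 0.21, adjusted p = 0.00864).

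Of the 10 most abundant miRNAs, miR-181a-5p was the single DE miRNA, and this depended on the scaling. With library totals alone, limma or the 9 libraries after hatch it fell short of 2-fold (log2 fold changes -0.95, -0.95 and -0.96), while miR-22-3p passed it (1.03, 1.02 and 1.04). The 10 with the highest mean at each stage took 71.2%, 71.4% and 73.4% of the counts at 1DB and 69.0%, 69.5% and 69.3% at 10WK. The libraries did not overlap, and the mean share fell by 2.72 percentage points (exact permutation test, two-sided, p = 0.1, the smallest that 3 against 3 libraries allow). miR-10a-5p and miR-10b-5p, encoded within Hox gene clusters, were the most abundant. miR-10a-5p had 122002, 122253 and 145818 CPM at 1DB and 153366, 162651 and 153337 CPM at 10WK (log2 fold change 0.12, SE 0.32, adjusted p = 0.806). miR-10b-5p had 135613, 148856 and 134877 CPM at 1DB and 92523, 134679 and 124716 CPM at 10WK (log2 fold change -0.39, SE 0.18, adjusted p = 0.106).

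Among the other abundant miRNAs, miR-22-3p had the largest rise, with 42764, 48187 and 42985 CPM at 1DB and 106134, 79103 and 88714 CPM at 10WK. It passed the adjusted p under 2-fold (log2 fold change 0.90, SE 0.15, adjusted p = 3.7e-04) and also reached 2-fold without 10WK replicate 2 (log2 fold change 1.01). miR-26a-5p (log2 fold change -0.49, SE 0.14, adjusted p = 0.0126), miR-148a-3p (-0.66, SE 0.15, adjusted p = 0.00324), miR-92-3p (-0.72) and miR-126-5p (-0.52, SE 0.18, adjusted p = 0.0301) were lower at 10WK under 2-fold. miR-27b-3p had 71547, 55167 and 73600.2 CPM at 1DB and 76396, 62698 and 62759 CPM at 10WK, with overlap (log2 fold change -0.13, SE 0.20, adjusted p = 0.648).

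The remaining DE miRNAs with a mean of at least 10 CPM at either stage were miR-153-3p, up-regulated with a log2 fold change of 1.07 (SE 0.38, adjusted p = 0.0349), and the down-regulated miR-1662 (-1.17, SE 0.24), miR-2131-3p (-1.35, SE 0.33), miR-2131-5p (-1.03, SE 0.36), miR-460a-5p (-1.13, SE 0.26) and miR-106-3p (-1.22, SE 0.25). The call of miR-153-3p was lost without any library but 1DB replicate 2 (adjusted p between 0.0585 and 0.172). That of miR-2131-5p was lost without 1DB replicate 1 (adjusted p = 0.104) or 3 (0.0838) or 10WK replicate 1 (0.103) or 3 (0.0647), and miR-460a-5p fell short of 2-fold without 10WK replicate 2 (-0.97). A further 10 DE miRNAs had a mean under 10 CPM at both stages, 4 up-regulated and 6 down-regulated. Beside miR-429-5p, the up-regulated ones were miR-135a-5p (log2 fold change 1.03, SE 0.25), miR-16-1-3p (1.19, SE 0.45) and miR-196-1-3p. miR-196-1-3p, the minor arm of a Hox cluster hairpin, had 4 counts at 1DB and 20 at 10WK, a ratio of CPM of 8.90 (95% exact conditional interval 2.98 to 35.8). Its call was lost without 1DB replicate 1 (adjusted p = 0.0713), 10WK replicate 1 (0.0587) or 10WK replicate 2 (0.0548). miR-16-1-3p lost its call without any one of the 6 libraries (adjusted p between 0.0592 and 0.153), and miR-135a-5p fell short of 2-fold without 1DB replicate 3 (0.91) or 10WK replicate 3 (0.92).

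At the low end of the falls, miR-1397-5p had 69 counts at 1DB and 2 at 10WK, a ratio of 19.4 (95% exact conditional interval 5.17 to 163), and miR-137-3p had 41 counts and 3, a ratio of 7.68 (2.45 to 38.8). Their fitted log2 fold changes of -4.26 and -2.98 rest on these few counts, and miR-137-3p lost its call without 1DB replicate 3 (adjusted p = 0.0816), 10WK replicate 1 (0.127) or 10WK replicate 3 (0.0711). Both arms of miR-551 fell, with log2 fold changes of -2.03 (SE 0.38) for miR-551-3p and -2.02 (SE 0.37) for miR-551-5p. miR-1805-3p (-1.60, SE 0.34) and miR-1467-5p (-1.29, SE 0.36) complete the 53, the latter not called without 10WK replicate 1 (adjusted p = 0.0704).

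Sequence identity was then set beside the changes, since the rule that chose the miRNAs did not use it. Of 29 seeds carried by at least 2 tested miRNAs, 10 had at least 1 DE member, 5 had at least 2 and 0 had DE members in both directions. These counts stand beside 22.9% DE miRNAs over all 231. Only the 5 seeds with at least 2 DE members could have held both directions, so the 0 is not a result about seeds. The 5 seeds were AGCACCA (miR-29, 3 of 3 up-regulated), AGUGCAA (miR-130, miR-301 and miR-454, 3 of 6 down-regulated), AAAGUGC (miR-17, miR-20 and miR-106, 2 of 4 down-regulated), ACAUUCA (miR-181, 2 of 2 down-regulated) and GGCAGUG (miR-34 and miR-449, 2 of 4 up-regulated). Some of these miRNAs differ by 1 or 2 bases only, so that their counts can share reads. In all, 10 DE miRNAs had a tested partner with the same seed and at most 2 mismatches, and over all tested miRNAs there were 49 such pairs. The share of all tested miRNAs with such a partner was not counted, so the 10 is not a result about the DE miRNAs.

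Both arms were tested for 86 hairpins, of which 25 had at least 1 DE arm. In 10 hairpins both arms were DE miRNAs, always in the same direction, 3 up (miR-31, miR-142 and miR-146a) and 7 down (miR-106, miR-130a, miR-130b, miR-455, miR-551, miR-2131 and miR-9). The arms had the same sign in 22 of the 25. The exceptions were miR-16-1, miR-30e and miR-181b-1, in each of which 1 arm was not a DE miRNA. Most hairpins without a DE arm also had arms of the same sign, so the 22 of 25 is not a result about the DE hairpins. Arms of one hairpin come from one transcript and are not independent.

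The libraries of 4WK place these changes within the 10 weeks. For miR-31-5p the level at 4WK was 3958, 4302 and 3353 CPM, within the reach of 10WK (10WK against 4WK, log2 fold change 0.08, SE 0.26, adjusted p = 0.898). miR-203a at 4WK had 35293, 30935 and 33382 CPM (log2 fold change to 10WK -0.25, SE 0.36, adjusted p = 0.733). For miR-489-3p the level at 4WK was 26.5, 37.8 and 58.9 CPM, as low as at 10WK (log2 fold change -0.07, SE 0.58, adjusted p = 0.957). miR-181a-5p at 4WK, with 55042, 46501 and 45832 CPM, was also close to 10WK (log2 fold change 0.05, SE 0.12, adjusted p = 0.864).

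Only 3 of the 231 miRNAs (1.3%) were DE miRNAs between 4WK and 10WK, beside 55 (23.8%) between 1DB and 4WK. The comparisons share libraries. miR-30e-5p had 272, 279 and 298 CPM at 4WK, below all libraries of 10WK (log2 fold change 1.08, SE 0.16, adjusted p = 0.00165). miR-9-3p had 45.5, 71.3 and 24.5 CPM at 4WK, above all libraries of 10WK (log2 fold change -2.06, SE 0.32, adjusted p = 0.00165). miR-142-3p was highest at 4WK, with 240.3, 529 and 163 CPM (log2 fold change to 10WK -1.40, SE 0.31, adjusted p = 0.0238), so that its net rise at 10WK was what remained of a higher level.

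The miR-29 family at 4WK lay between the other stages, miR-29a-3p at 262, 282 and 268 CPM, without passing the test against 10WK (log2 fold change 1.11, SE 0.31, adjusted p = 0.0794). miR-146a-5p had 335, 515 and 188 CPM at 4WK and miR-21-5p 39385, 67414 and 48828 CPM, where the latter differed from 10WK under 2-fold (log2 fold change -0.84, SE 0.17, adjusted p = 0.0192). The summed level of the leukocyte list was between 76231 and 106757 CPM at 4WK, above that of both 1DB and 10WK. There too miR-21-5p (mean of 51876 CPM) and miR-146c-5p (25019 CPM) made up most of it.

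**Figure D4:**
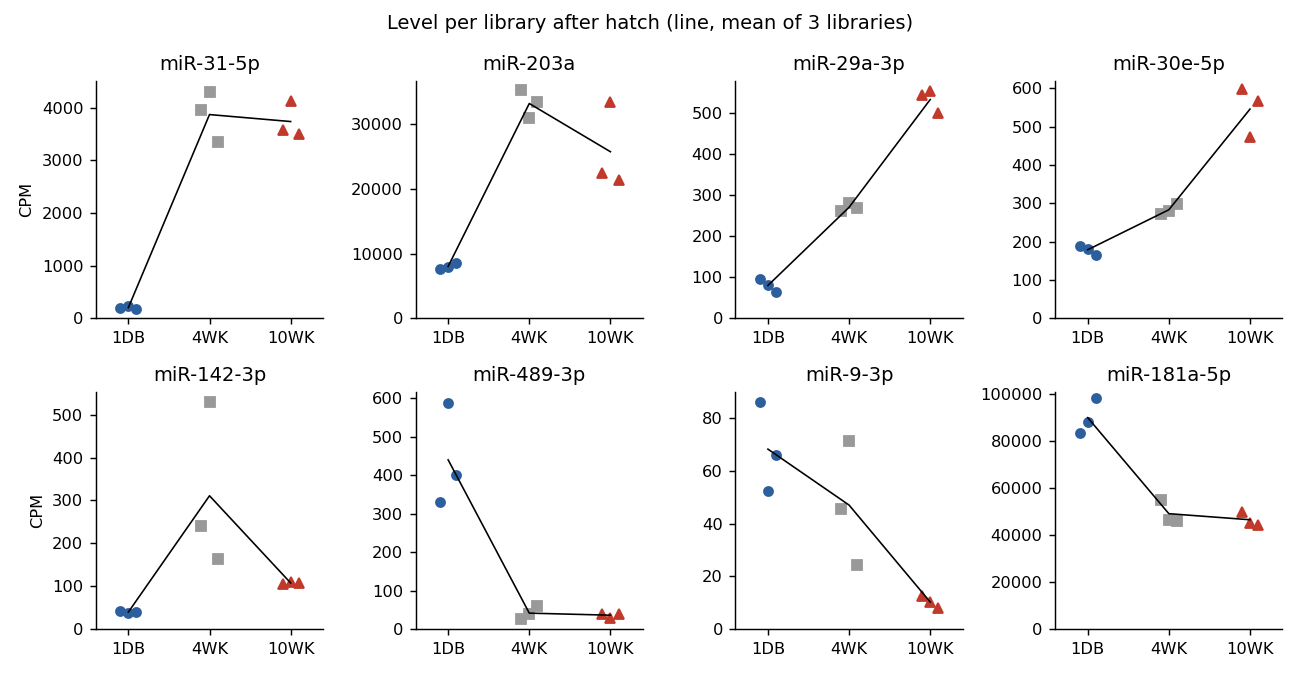
CPM of 8 miRNAs in each library of 1DB (circles), 4WK (squares) and 10WK (triangles), with a line through the means of 3 libraries. miR-31-5p, miR-203a, miR-489-3p and miR-181a-5p had reached the range of 10WK or gone past it at 4WK, while miR-29a-3p and miR-30e-5p were higher and miR-9-3p lower at 10WK than at 4WK, and miR-142-3p was highest at 4WK.

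miR-2954 fell and moved with a split that the stage does not explain. In chicken this miRNA is encoded on the Z chromosome and is higher in males. It had 3334, 737 and 3356 CPM at 1DB and 413, 504 and 458 CPM at 10WK (log2 fold change -2.60, SE 0.82, adjusted p = 0.0223), and the call was lost without any of the 6 libraries except 1DB replicate 2 (adjusted p between 0.0507 and 0.0699 without the others). Over the 17 libraries of the series, 9 lay between 413 and 738 CPM and 8 between 3334 and 4124 CPM, with no library between. All 3 libraries of 10WK and 1 of 3 at 1DB were in the lower range, and the sex of the ducks is not given in the sources used here. At 1DB the library in the lower range, replicate 2, had 7848 CPM of miR-203a, between the 7617 and 8558 CPM of the others, and 237 CPM of miR-31-5p beside 187 and 179.7 CPM. For miR-146a-5p it was the highest of the 3, with 65.2 CPM beside 34.1 and 53.9 CPM, and so it was for miR-449c-5p, with 11.6 CPM beside 3.88 and 9.92 CPM, and for miR-21-3p, with 103 CPM beside 100.3 and 72.8 CPM. For miR-449a (1.05 CPM beside 1.29 and 1.52 CPM) and miR-147 (4.21 CPM beside 6.95 and 5.84 CPM) it was the lowest.

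The log2 CPM of miR-2954 was also used as a covariate, an alternative chosen after its values had been seen. That fit tested 230 miRNAs, without miR-2954 itself, which therefore could not be called. In it 8 miRNAs were up-regulated, all among the 20, and 31 down-regulated, of which 29 were among the 33. miR-31-5p (log2 fold change 3.48, adjusted p = 4.5e-06) and miR-29a-3p (log2 fold change 2.15, adjusted p = 4.1e-04) kept their calls. miR-203a (log2 fold change 0.97, adjusted p = 0.079), miR-449a (1.91, adjusted p = 0.156), miR-449c-5p (0.96, adjusted p = 0.478), miR-146a-5p (1.13, adjusted p = 0.242), miR-146a-3p (1.27, adjusted p = 0.152), miR-147 (1.23, adjusted p = 0.117) and miR-21-3p (0.82, adjusted p = 0.0246) lost theirs. So did miR-153-3p, miR-429-5p, miR-135a-5p, miR-16-1-3p and miR-196-1-3p, and among the falls miR-137-3p, miR-2131-3p and miR-2131-5p. Stage and miR-2954 are partly confounded, since 10WK has no library in the upper range, and within 10WK the split cannot be examined.

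**Figure D5:**
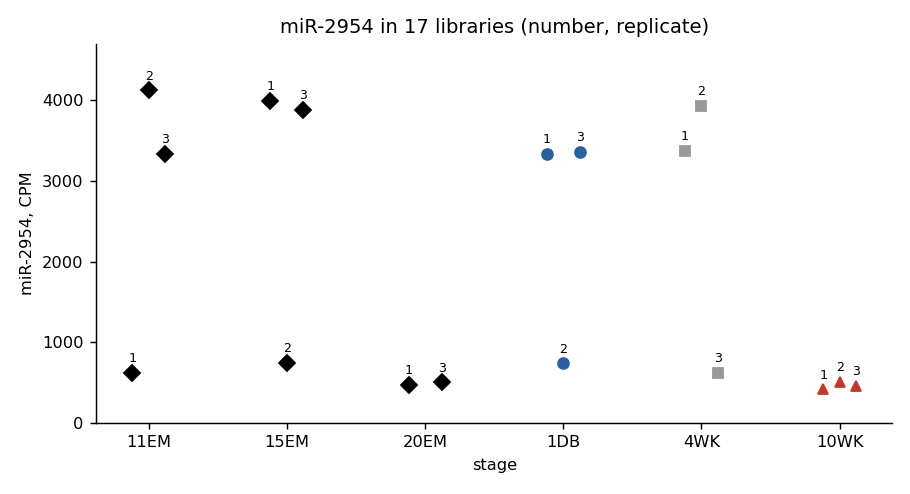
CPM of miR-2954 in each of the 17 libraries by stage, with the replicate number above each point. The libraries lie either between 413 and 738 CPM or between 3334 and 4124 CPM, all 3 of 10WK in the lower range and 2 of 3 at 1DB in the upper.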

How the data were processed

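Small RNA of duck skin was sequenced in single libraries. The authors trimmed adapters, removed short and low-quality reads and reads matching other noncoding RNA, and counted the rest against chicken miRNAs held in miRBase. The deposited values are their raw counts per mature miRNA of each hairpin, with no normalization. Counts with the same miRNA name were added up here, and CPM is the count scaled to a library total on miRNAs of 1000000.

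Stages were taken from the labels. A single fit of 17 libraries in 6 stage groups was made with edgeR 4.0.16 in R 4.3.3 (TMM normalization, quasi-likelihood test, contrast 10WK minus 1DB), with Benjamini-Hochberg adjustment over the 231 miRNAs that reached 1 CPM in 2 or more of the 6 libraries. DE miRNAs passed an adjusted p of 0.05 with a change of 2-fold or more. The standard error is the absolute log2 fold change divided by the square root of the F statistic. The exact permutation test and the exact intervals used scipy 1.17.1, with python 3.11.15, numpy 2.4.6 and pandas 2.3.3, and figures used matplotlib 3.10.9. The procedure was also run on simulated counts, with the same spread beyond counting error for every miRNA and changes well above 2-fold. That run does not bear on calls near the 2-fold limit.

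Described are the 12 DE miRNAs with the largest rise and the 12 with the largest fall, provided that their mean reached 10 CPM at 1DB or 10WK and that the stages did not overlap, their other arms, the 10 most abundant miRNAs, and from 21 lists of miRNAs by role the defining member and the DE members with a mean of at least 10 CPM. Other miRNAs were added after their values were seen, to complete a family or to account for the 53. The members, lists and tests were chosen with earlier results of these data known. Alternatives were library totals alone, median-of-ratios size factors, DESeq2 1.42.0, limma 3.58.1 on log2 CPM (values of 0 replaced by 0.01), fits of 6 or 9 libraries, the replicate number as a block, other filters and thresholds, leaving out each library and, added after seeing the data, miR-2954 as a covariate. Sequences are those of miRBase chicken miRNAs in the supplementary table of the study. Genome positions are not given, and replicate 2 of 20EM was not analysed here. The study named its miRNAs by those of chicken, so a duck sequence may differ.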

Additional observations from a re-analysis of the deposited data

How the results depend on the processing

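The 20 rises and 33 falls were within 1.5 times of these numbers under other scalings, tools, sample sets and without a filter. Requiring 10 CPM in 3 libraries gave 21 falls, with 168 miRNAs tested. The level of miR-2954 as a covariate gave 8 rises, and the cause was not tested. By construction the thresholds moved the numbers. With the adjusted p alone there were 37 rises, 54 falls and 59 calls among the 151 miRNAs in a list in place of 37. With an absolute log2 fold change over 2 there were 8 rises, 10 falls, 12 calls in lists and 13 of the 24 miRNAs named for their change, and with an adjusted p under 0.01 there were 12 rises. Leaving out each library gave between 14 and 22 rises, 26 and 34 falls, 29 and 36 calls in lists and 21 and 22 of the 24, and a difference in the share of the 10 most abundant between -3.13 and -2.02 percentage points. Of the 53 DE miRNAs, 0 changed sign under any alternative fit.

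Replicate numbers are shared by the stages. Same-numbered libraries of 1DB and 10WK had correlations of deviations of 0.093, 0.145 and 0.037, and those of unlike number lay between -0.147 and 0.079. Of the 6 libraries, 5 correlated best with their own number. Whether a number stands for anything shared was not tested. With the replicate number as a block there were 19 rises and 32 falls in the fit of 17 libraries and 22 and 31 in that of 6.

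Some miRNAs with few counts, among them miR-1397-5p, miR-1805-3p, miR-490-3p and both arms of miR-551, were tested in 16 of the 17 alternative fits. Of the 53 DE miRNAs, 27 were called under every alternative fit that tested them. Among the others, miR-106-5p, miR-130a-3p, miR-16c-5p, miR-181a-5p, miR-20b-5p and miR-218-5p, which lie near the 2-fold limit, were lost under library totals, median-of-ratios size factors, DESeq2 and limma. miR-2131-5p, also near the limit, was lost under each of these too, and under 15 of 17 alternative fits in all. Depth limits miRNAs with few counts, chiefly at 10WK, where 3 counts are up to 0.976 CPM.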

Other observations

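Ratios of related miRNAs within a library do not depend on the scaling between libraries. They are given as a description, with no test, since the pairs were chosen after the values had been seen. The log2 ratio of miR-30e-5p to miR-30a-5p was -6.62, -6.76 and -6.31 in the libraries of 1DB and -5.04, -5.55 and -5.10 in those of 10WK, a difference of 1.33. For miR-146a-5p to miR-146c-5p it was -8.63, -7.57 and -8.15 at 1DB and -7.10, -6.74 and -6.49 at 10WK, a difference of 1.34. The ratio of miR-9-3p to miR-9-5p, arms of one hairpin, was -0.26, -0.79 and -0.66 at 1DB and -1.81, -2.63 and -2.18 at 10WK, so that the arms fell by unequal amounts, with a difference of -1.63. For miR-16c-5p to miR-16-5p the difference was -0.99 and for miR-20b-5p to miR-20a-5p -0.64, and no library of one stage overlapped with the other in any of these 5 ratios. For miR-31-3p to miR-31-5p the stages did overlap, with log2 ratios of -8.18, -8.50 and -7.59 at 1DB and -7.04, -7.23 and -7.70 at 10WK. How often ratios of other pairs overlap was not counted. For miR-10a-5p over miR-10b-5p, the most abundant pair, the log2 ratio was -0.15, -0.28 and 0.11 at 1DB and 0.73, 0.27 and 0.30 at 10WK, so that miR-10a-5p became the more abundant in all 3 libraries of 10WK.

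Several DE miRNAs varied strongly within 10WK. miR-375 ranged from 3.92 to 25.7 CPM, miR-1677-3p from 1.30 to 10.2 CPM and miR-183 from 12.3 to 45.2 CPM, with replicate 2 the lowest for miR-375 and miR-183 and the highest for miR-1677-3p. At 4WK, replicate 1 had 8.08 CPM of miR-205b beside 323 and 248 CPM in the others, while miR-205a was at 37906, 51166 and 40146 CPM.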
